A study of Homo sapiens with 6 samples.

Results

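The tubulin isotypes examined here were 10 genes, 7 of beta-tubulin (TUBB, TUBB2A, TUBB2B, TUBB3, TUBB4A, TUBB4B and TUBB6) and 3 of alpha-tubulin (TUBA1A, TUBA1B and TUBA1C), chosen by gene name among the 35856 genes of the deposited table. The libraries came from HCCLM3 cells, an established human hepatocellular carcinoma line. In 3 libraries the cells had been transfected with a vector for the long non-coding RNA LINC00862, and in the other 3 with the empty vector, a group labelled NC and called Empty here. Whether the transfection was stable or transient is not given for these libraries, nor whether the 3 libraries of a group came from separate cultures, so p-values measure only the spread between these libraries. The comparison asks which RNAs differ between HCCLM3 cells with and without LINC00862 overexpression.

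Microtubules are hollow polymers of alpha-tubulin and beta-tubulin dimers that form the mitotic spindle, carry transport in the cytoplasm and build cilia. The isotypes of each family are encoded by separate genes, share a nearly constant core and differ mainly in a short acidic tail at the carboxyl end, where enzymes add glutamate or glycine. TUBB is the general isotype (class I), TUBB4B (class IVb) is also widespread, TUBB2A and TUBB2B (class II), TUBB3 (class III) and TUBB4A (class IVa) are best known from neurons, and TUBB6 (class V) is found at variable levels outside the nervous system. Cells adjust tubulin mRNA to the pool of free dimers through the first amino acids of the nascent protein. The factor TTC5 recognises these as the chain emerges from the ribosome, and the mRNA is then degraded.

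The bases that encode that start are shown as a description of the 10 members. Whether this element had a part in their changes was not tested. The first 15 coding bases follow for 1 member of each form, read from the principal transcripts in GENCODE 29 (GRCh38), with the first 4 codons in capitals.
TUBB: ATGAGGGAAATCgtg
TUBB3: ATGAGGGAGATCgtg
TUBB2A: ATGCGCGAGATCgtg
TUBB2B: ATGCGTGAGATCgtg
TUBB4A: ATGCGGGAGATCgtg
TUBA1B: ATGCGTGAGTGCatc
TUBB4B shared the 12 capital bases of TUBB, TUBB6 shared those of TUBB3, and TUBA1A and TUBA1C shared those of TUBA1B, so that 6 forms covered the 10 genes. The 3 alpha-tubulin genes thus began with the same bases.

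The other end of the coding sequence encodes the tail, which differs between many isotypes but little between TUBB2A and TUBB2B. The last 60 coding bases before the stop codon are given for 5 beta-tubulin members that the results turn on, with each in-frame glutamate codon (GAA or GAG) in capitals.
TUBB: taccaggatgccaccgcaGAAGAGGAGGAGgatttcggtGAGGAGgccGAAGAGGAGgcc
TUBB2A: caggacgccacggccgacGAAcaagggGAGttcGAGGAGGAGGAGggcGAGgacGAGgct
TUBB2B: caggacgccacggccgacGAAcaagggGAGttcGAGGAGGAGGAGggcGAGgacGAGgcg
TUBB3: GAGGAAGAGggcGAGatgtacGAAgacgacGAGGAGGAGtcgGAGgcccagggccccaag
TUBB6: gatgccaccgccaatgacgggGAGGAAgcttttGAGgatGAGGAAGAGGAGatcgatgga
Of the 20 codons shown, glutamate took 9 in TUBB, 8 in TUBB2A and in TUBB2B, 9 in TUBB3 and 7 in TUBB6. Over these 60 bases TUBB2A and TUBB2B were 98.3% identical, and TUBB3 and TUBB6 were 38.3% identical.

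How far a read can be told apart between these genes sets the limit of the comparison between isotypes. Over the whole coding sequence TUBB2A and TUBB2B were 98.2% identical, TUBA1A and TUBA1B 97.2%, TUBA1B and TUBA1C 96.8%, and TUBB and TUBB6 80.9%. Windows of 150 bases, the length of a read, were searched in the transcripts of all other genes in GENCODE 29. None of the windows of TUBB4A, TUBB4B and TUBB6 occurred in another gene (0.0% each), against 2.5% for TUBB, 6.77% for TUBA1C, 6.91% for TUBA1A and 19.1% for TUBA1B. The share was 39.4% for TUBB2B and 49.4% for TUBB2A, which share 714 windows with each other. In TUBB3 it was 88.7%, through the overlapping gene AC092143, to which the table gives 1 count over all 6 libraries. Levels of TUBB2A and TUBB2B taken singly are therefore uncertain, and their sum is given beside them.

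The total counts lay between 58241123 and 68229070 per library. LINC00862 itself had 11, 21 and 6 counts in Empty and 145, 121 and 76 counts with the LINC00862 vector (log2 fold change 3.22, standard error 0.53, adjusted p = 0.000583 from edgeR). The groups stood far apart beyond the tubulin genes, with a Spearman correlation of FPKM across genes of 0.754 to 0.767 between libraries of different groups and 0.896 to 0.909 within a group. Cell type markers also moved with the groups, among them those of hepatocytes and hepatoma, the lineage of the line. The summed FPKM (fragments per kilobase of transcript, scaled by library size) of 12 hepatocyte and hepatoma markers was 3.05 to 3.60 in Empty, where 4 of them had no count, and 539 to 619 in LINC00862, where FGB led and AFP had no count. That of 5 epithelial markers was 194 to 287 and 437 to 500.2, that of 7 mesenchymal markers was 815 to 845 and 16.0 to 20.6, and that of 4 leukocyte markers was 1.36 to 1.87 and 4.33 to 9.11, in Empty and LINC00862 respectively. Within the hepatocyte and hepatoma list, FGB made up most of the LINC00862 sum, at 550 ± 41.3 FPKM (SD, n = 3). TF followed with 15.5 ± 2.86 FPKM, and the other markers were low in both groups (ALB 1.51 ± 0.264 FPKM in LINC00862). SERPINA1 went the other way, from 1.29 ± 0.216 FPKM in Empty to 0.0950 ± 0.0428 in LINC00862. Of 9 tested in that list, 7 were called higher and 2 lower, beside 34.4% and 29.8% of all genes tested. Of the 5 epithelial markers, 4 were called higher. KRT8 was not called, at 84.5 ± 12.4 FPKM in Empty and 62.2 ± 10.6 in LINC00862. Of the 7 mesenchymal markers, 6 were called lower. COL1A1 was called higher, from 2.43 ± 0.199 to 10.6 ± 2.45 FPKM, and led the LINC00862 sum. Of the 4 leukocyte markers, 1 was called higher and 3 were not called. The part of these differences in the tubulin results was not tested, and a response to LINC00862 cannot be told apart from a difference in the cells each group was grown from. In bulk RNA, fewer cells of a type and less RNA per cell cannot be told apart either.

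All 10 tubulin genes were lower in LINC00862 than in Empty, and for each of them the 3 LINC00862 libraries lay below the 3 Empty libraries. The falls ranged from 2.67-fold for TUBB2A to 106-fold for TUBB6. All 10 passed the filter on low counts, and 10 of 10 were called lower by edgeR's quasi-likelihood test at a false discovery rate of 0.05. The 10 members were chosen with earlier results of these data known, and tubulin genes outside them differed in direction. Among the 20741 genes tested, 29.8% were called lower and 34.4% higher, and the FPKM of 36.6% lay lower in LINC00862 without overlap. The median log2 fold change was -2.26 over the 7 beta-tubulin genes and -2.48 over the 3 alpha-tubulin genes, against 0.11 over all genes tested.

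**Figure D1:**
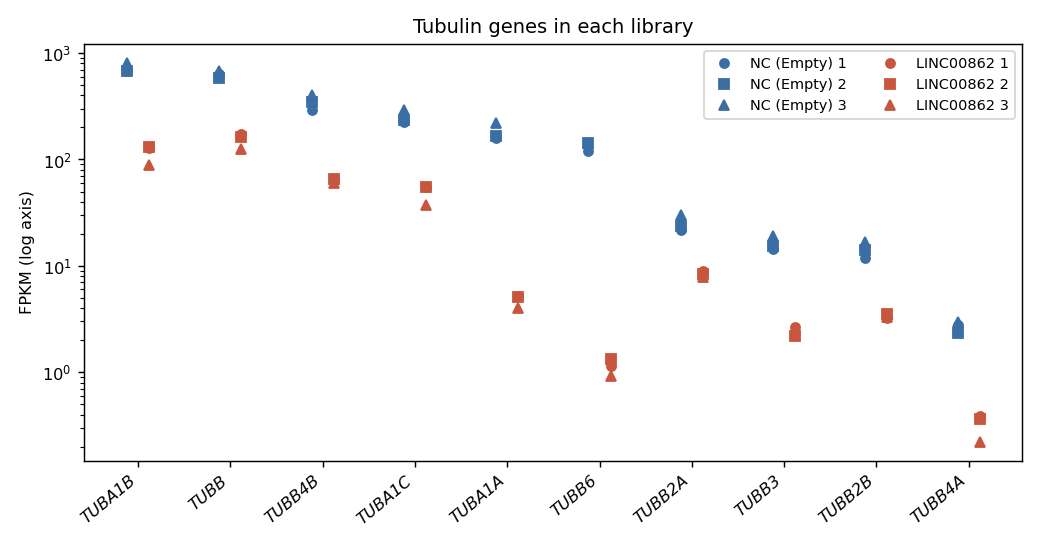
FPKM of the 10 tubulin genes (log axis), ordered by their mean in Empty (NC), with 1 point per library. For every gene the 3 LINC00862 libraries lie below the 3 Empty libraries, and the gap is widest for TUBB6 and TUBA1A.

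TUBB6, the class V isotype (ENSG00000176014, chromosome 18 from 12307669 to 12344320, plus strand), fell most. It had 120.1, 144 and 143 FPKM in Empty and 1.15, 1.33 and 0.927 FPKM in LINC00862, so that the lowest Empty library stood far above the highest LINC00862 library. These values rest on 31350, 36954 and 37512 counts in Empty and on 348, 350 and 247 with LINC00862. On the log2 scale TUBB6 changed by -6.73, with a standard error of 0.22 (adjusted p = 4.71e-08, edgeR). Of all genes tested, 1.36% had a lower log2 fold change. AFG3L2, a gene for a mitochondrial protease, overlaps the end of TUBB6 on the opposite strand and was called higher, at 12.6 ± 1.24 FPKM (SD, n = 3) in Empty and 18.6 ± 4.36 in LINC00862.

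TUBA1A, the alpha isotype that dominates in developing neurons (ENSG00000167552, chromosome 12 from 49184795 to 49189080, minus strand), fell second most. It had 160.3, 166 and 220.3 FPKM in Empty and 5.18, 5.07 and 3.99 FPKM in LINC00862, a fall of 34.3-fold (log2 fold change -5.10, standard error 0.22, adjusted p = 2.01e-07 from edgeR). Its neighbours TUBA1B (ENSG00000123416, 49127782 to 49131395, minus strand) and TUBA1C (ENSG00000167553, 49188736 to 49274600, plus strand), which are expressed in most cells, fell less. TUBA1B had 679, 680.0 and 809 FPKM in Empty and 129, 129.9 and 89.2 FPKM in LINC00862. TUBA1C had 224, 235 and 293 FPKM in Empty and 54.9, 54.7 and 37.5 FPKM in LINC00862. In each of the 3 genes the third Empty library was the highest and the third LINC00862 library the lowest, and the groups did not overlap. The log2 fold changes were -2.48 (standard error 0.20, adjusted p = 6.84e-06) for TUBA1B and -2.20 (standard error 0.20, adjusted p = 1.73e-05) for TUBA1C from edgeR.

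The long non-coding RNA gene AC011603 (ENSG00000258017) runs from 49127782 to 49188484 on the plus strand, antisense to TUBA1B and to most of TUBA1A. It had 11691, 11591 and 24228 counts in Empty and 294, 159 and 114 counts in LINC00862, with a log2 fold change of -6.34 (standard error 0.45, adjusted p = 3.24e-06 from edgeR). The third Empty library had the highest count here too. The library kit retained strand, but whether counting used it is not given in the sources used here, so reads from the sense and antisense genes may not have been separated. The same holds for TUBA1A and TUBA1C, which overlap at their starts on opposite strands. Summed into 1 feature, TUBA1A, TUBA1B and TUBA1C had a log2 fold change of -2.56 (standard error 0.21, adjusted p = 8.03e-06 from edgeR).

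Among the beta isotypes found in most cells, TUBB (ENSG00000196230, chromosome 6 from 30720352 to 30725426, plus strand) had 641, 589 and 679.8 FPKM in Empty and 172, 164 and 126 FPKM in LINC00862. TUBB4B (ENSG00000188229, chromosome 9 from 137241287 to 137243707, plus strand) had 291, 343 and 401 FPKM in Empty and 65.5, 66.2 and 60.7 FPKM in LINC00862. Neither gene overlapped between the groups. TUBB fell 3.68-fold (log2 fold change -1.88, standard error 0.17, adjusted p = 1.52e-05) and TUBB4B fell 4.80-fold (log2 fold change -2.26, standard error 0.19, adjusted p = 8.43e-06 from edgeR). By point estimate TUBB2A alone fell less than TUBB.

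The isotypes best known from neurons were present at low levels and also fell. TUBB3 (ENSG00000258947, chromosome 16 from 89921392 to 89938761, plus strand), a common neuronal marker, had 14.5, 15.5 and 19.2 FPKM in Empty and 2.65, 2.20 and 2.53 FPKM in LINC00862. It changed by -2.56 on the log2 scale (standard error 0.19, adjusted p = 5.24e-06 from edgeR). TUBB4A (ENSG00000104833, chromosome 19 from 6494319 to 6502848, minus strand), the lowest member in both groups, had 2.77, 2.35 and 2.97 FPKM in Empty and 0.384, 0.364 and 0.223 FPKM in LINC00862. It rested on 594, 497 and 641 counts in Empty and 95, 78 and 50 in LINC00862, and it changed by -2.88 on the log2 scale (standard error 0.27, adjusted p = 1.99e-05 from edgeR). Neuronal markers as a list were mixed: of 13 listed, 11 were in the table and 10 were tested, of which 4 were called higher and 3 lower, beside 34.4% and 29.8% of all genes tested. Their summed FPKM was 99.5 to 141 in Empty, where UCHL1 led, and 41.6 to 52.1 in LINC00862, where NEFL led. UCHL1 had 125 ± 22.5 FPKM (SD, n = 3) in Empty and 16.2 ± 2.28 in LINC00862, and NEFL had 0.0694 ± 0.0447 and 30.6 ± 3.57. Their part in the fall of these isotypes was not tested.

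The class II genes lie near each other on the minus strand of chromosome 6, TUBB2A (ENSG00000137267) from 3153666 to 3157544 and TUBB2B (ENSG00000137285) from 3224277 to 3231730. TUBB2A had 21.5, 23.9 and 29.9 FPKM in Empty and 8.95, 8.44 and 7.80 FPKM in LINC00862. TUBB2B had 11.8, 14.0 and 16.8 FPKM in Empty and 3.22, 3.53 and 3.28 FPKM in LINC00862. The groups did not overlap in either gene. The log2 fold change of TUBB2A, -1.42 (standard error 0.18, adjusted p = 0.000139), was the smallest of the 10, and that of TUBB2B was -1.92 (standard error 0.20, adjusted p = 3.59e-05 from edgeR). Summed into 1 feature, the class II pair had a log2 fold change of -1.60 (standard error 0.18, adjusted p = 6.33e-05 from edgeR). PSMG4, which overlaps the start of TUBB2B on the opposite strand, was called higher, at 1.54 ± 0.436 FPKM (SD, n = 3) in Empty and 2.59 ± 0.226 in LINC00862.

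**Figure D2:**
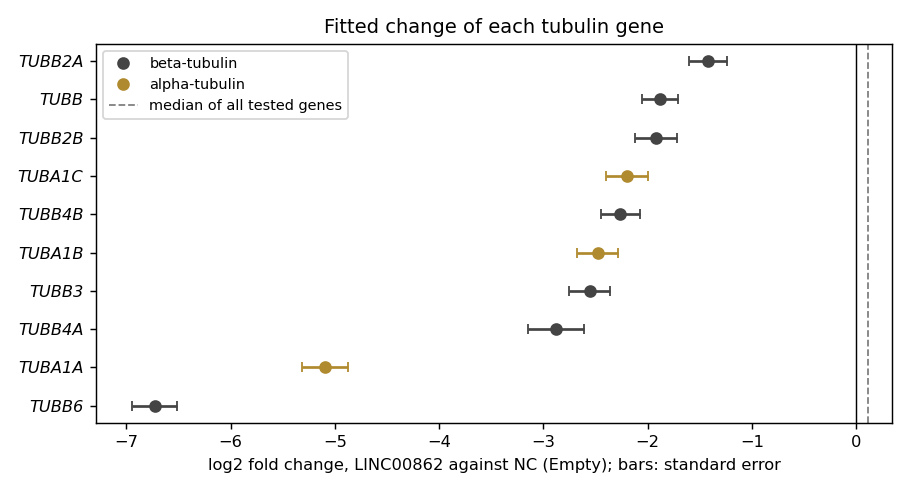
Fitted log2 fold change of each tubulin gene in LINC00862 against Empty (NC), with bars of 1 standard error; the dashed line marks the median of all tested genes at 0.11. TUBB6 (-6.73) and TUBA1A (-5.10) stand apart from the other 8 genes, which lie between -2.88 and -1.42.

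Since the falls were unequal, the make-up of the tubulin RNA differed between the groups as well as its amount. Shares were taken within each library from FPKM, so they do not depend on the scaling between libraries. TUBB6 made up 10.9%, 12.7% and 11.04% of the summed beta-tubulin FPKM in Empty and 0.451%, 0.541% and 0.461% in LINC00862. TUBB went from 54.3% ± 3.38 (SD, n = 3) to 65.6% ± 2.81 of the beta-tubulin sum, although its level fell. TUBB2A went from 2.13% ± 0.181 to 3.61% ± 0.237, TUBB3 went from 1.39% ± 0.0891 to 1.07% ± 0.184, and TUBB4A from 0.230% ± 0.0218 to 0.137% ± 0.0224. In these 5 genes the shares did not overlap between the groups (exact two-sided permutation test, p = 0.1, the smallest that 3 libraries against 3 allow; 0.117 after Benjamini-Hochberg adjustment over the 14 shares and sums tested). The shares of TUBB4B (29.3% ± 2.52 and 27.6% ± 2.30, exact permutation p = 0.4) and TUBB2B (1.20% ± 0.120 and 1.44% ± 0.184, exact permutation p = 0.2) overlapped between the groups. Taken singly, the shares of TUBB2A and TUBB2B are as uncertain as their levels, and the share of their sum was not tested.

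In the alpha family, TUBA1A went from 15.7% ± 0.847 (SD, n = 3) of the summed FPKM of the 3 genes in Empty to 2.82% ± 0.201 in LINC00862. TUBA1B went from 62.6% ± 1.35 to 68.3% ± 0.148 and TUBA1C from 21.6% ± 0.550 to 28.9% ± 0.176. None of these shares overlapped between the groups (exact permutation p = 0.1 each). TUBA4A, an alpha-tubulin gene that is no member, went the other way: it had 14.2 ± 2.14 FPKM in Empty and 23.8 ± 4.01 FPKM in LINC00862 (log2 fold change 0.90, standard error 0.18, adjusted p = 0.00205 from edgeR). In the sum over all alpha-tubulin genes of the table it made up 1.22% ± 0.0626 in Empty and 12.3% ± 0.541 in LINC00862. With that sum as the denominator, the share of TUBA1B was lower in LINC00862, 59.7% ± 0.451 against 61.9% ± 1.36.

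**Figure D3:**
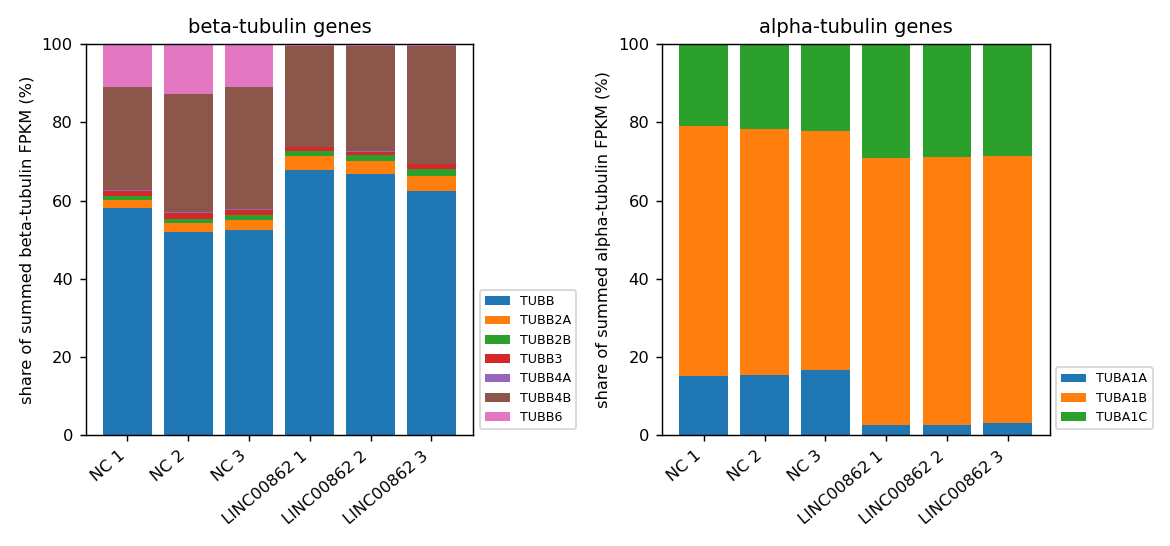
Share of each member in the summed FPKM of the beta-tubulin members (left) and of the alpha-tubulin members (right), with 1 stacked bar per library. TUBB6 takes 10.9% to 12.7% of the beta-tubulin bars in Empty (NC) and 0.451% to 0.541% in LINC00862, and TUBA1A takes a smaller part likewise among the alpha-tubulin genes.

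The 10 genes together gave 2166, 2213 and 2614 FPKM in Empty and 443, 436 and 332 FPKM in LINC00862, a ratio of means of 5.77. By counts they took 0.798%, 0.819% and 0.973% of the reads in Empty and 0.162%, 0.160% and 0.121% in LINC00862. The ratio of alpha-tubulin to beta-tubulin FPKM was 0.964, 0.956 and 1.02 in Empty and 0.744, 0.770 and 0.650 in LINC00862. These sums and the ratio did not overlap between the groups (exact permutation p = 0.1 each, the smallest possible). The third Empty library was the highest of its group for 9 of 10 members, and the third LINC00862 library was the lowest of its group for 8 of 10.

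The order of the levels differed between the groups. In Empty it ran, by mean FPKM, TUBA1B (722), TUBB (637), TUBB4B (345), TUBA1C (250.5), TUBA1A (182), TUBB6 (135), TUBB2A (25.1), TUBB3 (16.4), TUBB2B (14.2) and TUBB4A (2.70). Neighbours whose libraries overlapped were TUBA1B and TUBB, TUBB4B and TUBA1C, and TUBB3 and TUBB2B. In LINC00862 it ran TUBB (154), TUBA1B (116), TUBB4B (64.2), TUBA1C (49.0), TUBB2A (8.39), TUBA1A (4.75), TUBB2B (3.34), TUBB3 (2.46), TUBB6 (1.14) and TUBB4A (0.323), where TUBB and TUBA1B alone overlapped as neighbours. TUBB6 thus moved from the sixth to the ninth place, below each of the other members except TUBB4A.

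By a distance over the 6 libraries, the genes nearest to TUBB6 were TCEAL7, PBX4 and TMSB15B. Their Euclidean distances from TUBB6 on centred log2 CPM (counts scaled by library size, with a prior count of 2 added) were 0.361, 0.364 and 0.423. All 3 genes had no count in any LINC00862 library. TCEAL7 had 197, 249 and 197 counts in Empty, PBX4 had 229, 251 and 222, and TMSB15B had 161, 212 and 178. Against a floor of 3 counts per library they were at least 74.7-fold, 81.5-fold and 64.0-fold lower. With 6 libraries in 2 groups, the distance mainly measures the size of the group difference. For these 3 genes that size depends on the prior count, since they had no count in LINC00862. Their nearness to TUBB6 is therefore partly set by that choice, and no likeness is drawn from it.

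The region before the start site was read for the members with the largest and the smallest fall, TUBB6 and TUBB2A, from RefSeq (GRCh38.p14). In both the RefSeq start equals the gene's start in the deposited table, and the 250 bases before it contain no exon annotated in GENCODE 29. Capitals mark matches on either strand to the GC box core GGGCGG and to the TATA box core TATAA. The core of the CCAAT box was searched on both strands too, and the motifs do not overlap in these windows.
TUBB6, chr18:12307419-12307668, plus strand: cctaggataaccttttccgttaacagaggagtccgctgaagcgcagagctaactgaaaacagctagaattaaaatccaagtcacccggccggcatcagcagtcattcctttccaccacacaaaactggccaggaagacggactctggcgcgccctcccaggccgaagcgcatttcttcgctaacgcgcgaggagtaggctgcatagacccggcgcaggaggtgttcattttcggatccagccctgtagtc
TUBB2A, chr6:3157545-3157794, minus strand: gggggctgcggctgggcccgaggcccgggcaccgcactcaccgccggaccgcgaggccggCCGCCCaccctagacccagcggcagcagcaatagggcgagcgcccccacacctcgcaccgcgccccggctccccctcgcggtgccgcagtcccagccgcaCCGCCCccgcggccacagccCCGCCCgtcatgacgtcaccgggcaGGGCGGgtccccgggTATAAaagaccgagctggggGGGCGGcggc
The window of TUBB2A holds 5 matches to GGGCGG and 1 to TATAA, and that of TUBB6 holds no match to the 3 motifs. RefSeq lists a second start of TUBB6 at 12308241, whose window holds 6 matches to GGGCGG and 1 to CCAAT. Among all 35116 windows of the same length, 42.6% hold GGGCGG, 18.9% TATAA and 32.0% CCAAT on either strand. Of the 7 members with a window at the deposited start, 3, 2 and 4 hold them. A match is a description of the letters and not a binding site.

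The tubulin genes outside the 10 members differed in direction. Of 14 listed, 13 were in the table and 10 were tested, of which 5 were called higher and 2 lower, with a median log2 fold change of 0.99; among all genes tested 34.4% were called higher and 29.8% lower. Their summed FPKM was lower in LINC00862, at 50.7 to 60.5 against 66.0 to 76.3 in Empty, and 3 of the 5 genes called higher (TUBB1, TUBB8 and TUBB8B) had low FPKM in both groups. Besides TUBA4A, TUBE1 (epsilon-tubulin, of centrioles) was higher, at 0.784 ± 0.111 FPKM (SD, n = 3) in Empty and 1.99 ± 0.129 in LINC00862 (adjusted p = 0.000115 from edgeR), and so was the platelet isotype TUBB1, at 0.164 ± 0.0504 and 0.305 ± 0.0440 (adjusted p = 0.0358). TUBB8, the oocyte isotype, and TUBB8B had no count in Empty. TUBB8 had 58, 37 and 46 counts in LINC00862, at least 14.8-fold higher against the floor of 3 counts per library, and TUBB8B had 35, 47 and 31, at least 12.1-fold higher. TUBG1 (gamma-tubulin, which nucleates microtubules) was called lower, at 43.6 ± 2.87 and 22.4 ± 0.980 FPKM (adjusted p = 0.000919), as was TUBD1 (delta-tubulin), at 3.38 ± 0.363 and 1.45 ± 0.345 (adjusted p = 0.00243). TUBG2, TUBA8 and TUBA3D did not pass the test, with adjusted p of 0.159, 0.0936 and 0.605 from edgeR.

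Of the 3 factors of tubulin autoregulation, 1 was called higher, beside 34.4% of all genes tested, and the other two did not pass the test. TTC5, which recognises the start of the nascent tubulin chain, had 1.02 ± 0.152 FPKM (SD, n = 3) in Empty and 0.652 ± 0.0878 in LINC00862 (log2 fold change -0.47, adjusted p = 0.0647 from edgeR). SCAPER, which TTC5 recruits, had 0.759 ± 0.293 and 0.946 ± 0.193 FPKM (adjusted p = 0.112). CNOT11, a subunit of the deadenylase complex that degrades the mRNA, was called higher, at 12.5 ± 1.39 and 16.0 ± 1.72 FPKM (log2 fold change 0.54, adjusted p = 0.00557).

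Of the 22 genes of the tubulin folding list (prefoldin, the chaperonin CCT and the tubulin cofactors), 12 were called lower, 2 higher and 8 did not pass the test, with a median log2 fold change of -0.68. Over all genes tested, 29.8% were called lower and 34.4% higher. The largest falls were those of VBP1, a prefoldin subunit, from 65.9 ± 4.65 to 10.7 ± 0.939 FPKM (SD, n = 3), and TCP1, a subunit of CCT, from 69.2 ± 0.802 to 13.9 ± 1.501 FPKM. CCT5, another subunit of the same ring, was called higher, from 77.6 ± 3.12 to 118 ± 14.8 FPKM. Of the 10 genes of the nucleation list, 7 were called lower by edgeR, with a median of -0.82. TUBGCP2, a core subunit of the gamma-tubulin ring complex, went from 9.53 ± 0.826 to 1.62 ± 0.204 FPKM, and NEDD1, which anchors that complex, from 9.58 ± 3.21 to 2.20 ± 0.0842 FPKM.

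Enzymes that modify tubulin were mixed. Of 24 tested, 12 were called lower and 4 higher, beside 29.8% and 34.4% of all genes tested, with a median log2 fold change of -0.66. HDAC6, which removes acetyl groups from alpha-tubulin, went from 4.87 ± 0.634 to 0.636 ± 0.0649 FPKM (SD, n = 3), and VASH1, which removes the final tyrosine of alpha-tubulin, from 1.81 ± 0.252 to 0.132 ± 0.0861 FPKM. TTLL12, of the tubulin tyrosine ligase-like family, was called higher, from 11.6 ± 1.17 to 32.5 ± 9.39 FPKM.

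Microtubule-associated proteins had the lowest median of the lists of genes that act on tubulin, -1.79. Of 14 tested genes, 8 were called lower and 3 higher, beside 29.8% and 34.4% of all genes tested. Within 1 family the members moved in opposite directions. MAP7, which binds microtubules and recruits kinesin, rose from 0.0381 ± 0.0201 to 9.19 ± 0.667 FPKM (SD, n = 3; log2 fold change 8.01, standard error 0.32, adjusted p = 1.39e-07 from edgeR). Its relatives MAP7D1 and MAP7D3 fell from 39.8 ± 5.16 to 2.22 ± 0.0673 FPKM and from 5.99 ± 1.20 to 0.590 ± 0.0316 FPKM. MAP9 was called higher, from 0.514 ± 0.208 to 1.14 ± 0.123 FPKM.

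In the list of plus-end, dynamics and severing genes, 10 of 17 tested were called lower and 1 higher, with a median of -0.70. STMN3, a stathmin that binds free tubulin dimers, had 8534, 8160 and 11128 counts in Empty and 75, 65 and 123 in LINC00862, with a log2 fold change of -6.61 (standard error 0.35, adjusted p = 5.9e-07 from edgeR). The katanin-like severing genes split: KATNAL1 went from 3.54 ± 0.892 to 0.287 ± 0.0315 FPKM (SD, n = 3), whereas KATNAL2, the single gene of the list called higher, went from 0.109 ± 0.0374 to 2.73 ± 0.112 FPKM. The counts called lower in the folding, nucleation, modification, microtubule-associated and plus-end lists stand beside 29.8% of all genes tested, and those called higher beside 34.4%. The lists were chosen with results of these data known.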

How the data were processed

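RNA from 6 libraries of HCCLM3 cells (3 Empty, 3 LINC00862) was captured with oligo(dT) and sequenced from both ends. The deposited table gives read counts per gene, not normalized, and FPKM, which the authors scaled by transcript length and library size. The submitters' processing notes name cutadapt 1.9, HISAT2 2.0.4, StringTie 1.3.4d, UMI-tools, DESeq2, edgeR and hg38, without their roles. How reads shared between paralogs were assigned, and whether strand was used, is not given in the sources used here; either can shift counts between the class II pair and among the TUBA1 genes. Columns of the authors' own comparison (fold changes and p-values) were not used.

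Counts were tested with edgeR 4.0.16 (R 4.3.3; filterByExpr, TMM scaling, quasi-likelihood test) over all 20741 genes that passed the filter, with Benjamini-Hochberg adjustment at 0.05. FPKM served for levels, shares and sums, compared by exact permutation. DESeq2 1.42.0 and limma 3.58.1 were alternatives. On simulated counts with an assumed spread and 200 changed genes, the fit recovered 97.8% of 4-fold changes and 49.5% of 2-fold changes. It made 9 false calls. A gene that did not pass the test is therefore not shown to be unchanged. Total counts of 58241123 to 68229070 limit precision mainly for TUBB4A. The members, the lists of genes and the markers were chosen with earlier results of these data known. Every tested gene of the lists of other tubulin genes and of autoregulation was named. Genes named from the 5 other lists of genes acting on tubulin were at most the 2 largest called rises and the 2 largest called falls, without overlap between groups and with a mean of at least 1 FPKM in either group. The coding ends of the alpha-tubulin members are not reported here. UCHL1, NEFL, FGB, TF, ALB, SERPINA1, AFP, KRT8 and COL1A1 were named from the marker lists after their values were seen.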

Additional observations from a re-analysis of the deposited data

How the results depend on the processing

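All 10 members were called lower in every alternative fit, which covered scaling, the low-count filter, DESeq2, limma on log2(FPKM + pseudocount), leaving out each library in turn and a replicate block. Over these, the log2 fold change of TUBB6 ran from -6.88 to -6.00, that of TUBA1A from -5.25 to -4.89, that of TUBB2A from -1.57 to -1.21 and that of TUBB4A from -3.03 to -1.48. Scaling moved the median of all genes, which was 0.11 with TMM, 0.32 with upper quartiles, -0.05 with library size and 0.16 in DESeq2. Calls higher and lower were 7145 and 6176 with TMM, 8060 and 5291 with upper quartiles, 6437 and 6826 with library size, and 7556 and 6166 in DESeq2. Replicate numbers did not pair the libraries (correlations of deviations -0.0489, -0.0254 and -0.00737); with the replicate block all 10 members were called lower, among 5556 genes lower and 6542 higher. Taken from counts in place of FPKM, the difference in share (LINC00862 minus Empty) was 14.8 percentage points for TUBB, 0.955 for TUBB2A, -14.9 for TUBB6, -11.1 for TUBA1A and 3.49 for TUBA1B. With every protein-coding tubulin gene of the family in the sum, it was 3.85 for TUBA1C and reversed to -2.13 for TUBA1B, since TUBA4A enters the sum, and the log2 ratio of alpha-tubulin to beta-tubulin differed by -0.28.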

Other observations

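Of 19 tubulin pseudogenes in the table, 7 were tested. TUBAP2, TUBB2BP1 and TUBBP1 were called lower, with log2 fold changes of -1.60, -1.37 and -1.36, and TUBBP5 and TUBB8P7 higher. Among all genes tested, 29.8% were called lower and 34.4% higher. TUBAP5 and TUBA3FP did not pass edgeR's test (adjusted p = 0.0524 and 0.173). TUBBP5 had no count in Empty and 132, 130 and 69 counts in LINC00862, at least 34.9-fold higher against a floor of 3 counts per library. TUBB8P7 had no count in Empty and 43, 35 and 29 in LINC00862, at least 11.3-fold higher.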
